A study of Mus musculus with 30 samples.

Results

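The response of J774A.1 cells to IFNG was compared between clones that carry the repeat element B2_Mm2.Dicer1 and clones that lack it, with all 30 of the 30 RNA-seq libraries of the series. J774A.1 is a mouse macrophage-like cell line, and B2_Mm2.Dicer1 is a copy of the short interspersed element B2_Mm2 that lies in the first intron of Dicer1 on chromosome 12. The clones WT1, WT2 and WT3 were grown from single wild-type cells and were not electroporated, and KO1 and KO2 were electroporated with Cas9 and a guide pair and are homozygous for the deletion. Each line is 1 clone, so the comparison sets 2 clones against 3, and the deletion cannot be told apart from the editing procedure or from other differences between clones. Each clone was sequenced without treatment and after 4 h in 100 ng/mL IFNG, in 3 libraries per treatment. Of 54146 genes in the count table, 14682 had enough counts to be tested. The quantity tested was the interaction of treatment with genotype, which is the log2 fold change (log2FC) under IFNG in KO minus the log2FC under IFNG in WT. A positive interaction therefore means a stronger rise, or a weaker fall, in KO cells.

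The guides are printed because they set the deletion that separates the genotypes, and the capitals mark the PAM that Cas9 needs next to its target.
gEC005, upstream of the element: ggccagggaacggctttagaGGG
gEC007, downstream of the element: aaatagtcactgggcaacagTGG

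IFNG binds the receptor chains IFNGR1 and IFNGR2, and the kinases JAK1 and JAK2 then activate transcription factors. Such factors bind gamma-activated sequences (GAS), and factors of the IRF family bind interferon-stimulated response elements (ISRE). In macrophages the induced genes encode GTPases that attack vacuoles holding pathogens (guanylate-binding proteins and immunity-related GTPases), antiviral proteins, antigen presentation and enzymes such as that for itaconate, while parts of the growth factor and tissue repair programmes are turned down.

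The libraries held 15566122 to 37992642 counted fragments, of which 2.77% to 3.88% lay on mitochondrial genes. All 23 listed genes of macrophage identity were detected, with a summed level of 8032 to 10014 CPM (fragment counts scaled to the size of the library) in WT and 10201 to 11130 CPM in KO libraries. Markers of T and NK cells, B cells, fibroblasts and epithelium, and granulocytes and mast cells summed to at most 9.44, 27.4, 2.99 and 3.99 CPM, and Cd3g, Cd8a, Ncr1, Trac, Dcn, Krt8, Krt18, Krt19, S100a9 and Mcpt4 had 0 counts in all libraries. In bulk RNA, fewer responding cells and less RNA in each cell cannot be told apart. Chromosome 12 genes had a lower median level in KO1 than in WT, by a log2 difference of -0.35 in untreated and -0.36 in IFNG-treated cells relative to all genes, against 0.00074 and 0.012 in KO2. WT1 stood apart from the other WT clones. The response to IFNG differed between the 3 WT clones for 350 genes (2.38% of those tested) and, with WT1 left out, between WT2 and WT3 for 19 genes. It differed between KO1 and KO2 for 20 genes (0.136%).

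Across the genome, the response differed between KO and WT for 150 genes (1.02% of 14682, edgeR quasi-likelihood test with a Benjamini-Hochberg adjusted p under 0.05). Of these, 100 genes had a positive (0.681%) and 50 a negative interaction (0.341%), and 1366 genes had an unadjusted p under 0.05. Most differences were small in size, but many called genes also responded little. Of the positive calls, 24 had a WT log2FC between -0.5 and 0 and 16 between 0 and 0.5. Of the negative calls, 3 and 11 lay in these ranges. The positive interactions had a median log2 of 0.37, which is a 1.29-fold difference between responses, with a range of 0.13 to 1.23, and 75 of the 100 were under 0.5. The negative interactions had a median size of 0.36, and 35 of the 50 were under 0.5. The responses of both KO clones lay above those of all 3 WT clones for 86 of the 100 positive genes (9.93% of all genes tested) and below them for 49 of the 50 negative genes (11% of all genes tested), a separation that the call itself favours. For comparison, 3141 genes rose (21.4%) and 3380 fell (23%) under IFNG in WT, and 2745 rose (18.7%) and 3108 fell (21.2%) in KO. The median interaction over all genes tested was -0.0030.

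**Figure D1:**
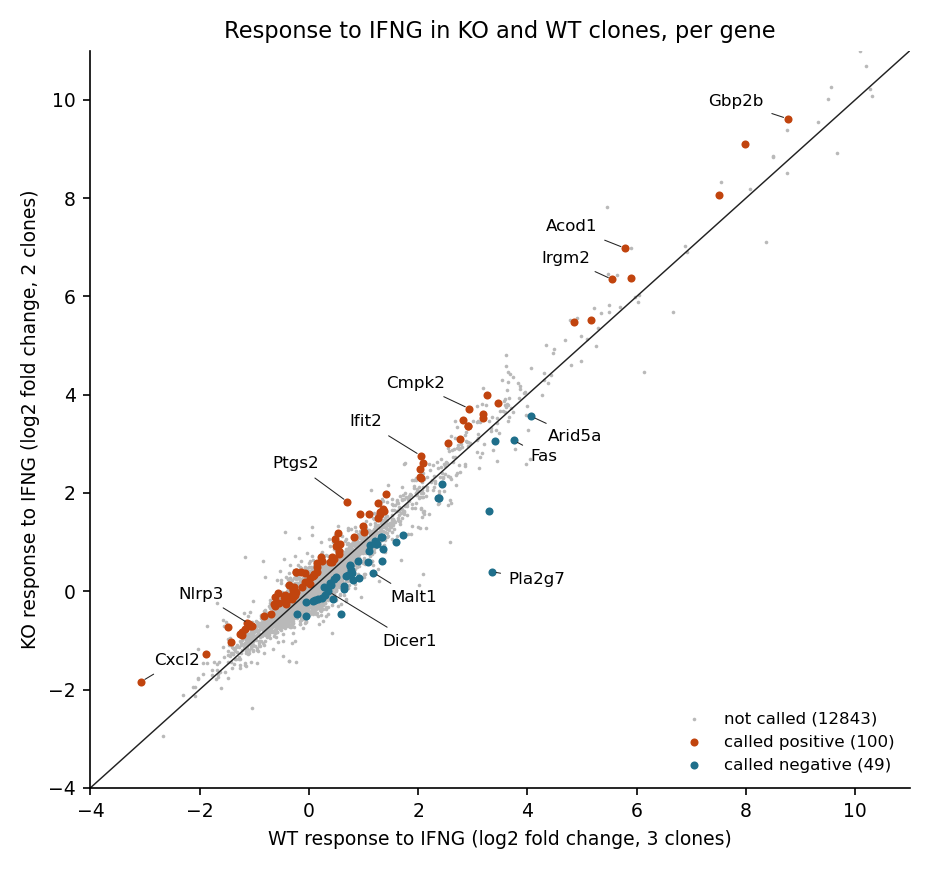
Each point is 1 gene whose mean reached 1 CPM or more in some clone and treatment, with the log2 fold change under IFNG in the 3 WT clones on the horizontal and in the 2 KO clones on the vertical axis, and the line marks equal responses. Most genes called in the interaction lie less than 0.5 from equal responses, and Pla2g7 lies farthest, with an interaction of -2.96. Cxcl2 lies at -3.07 in WT and -1.84 in KO and Gbp2b at 8.76 and 9.62. A called gene below 1 CPM is not drawn.

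The call of a positive interaction covered genes that rose and genes that fell. Of the 100, 54 rose and 27 fell in both genotypes, 10 fell in WT and did not pass the test in KO, 5 rose in KO without passing in WT, and 4 fell in WT and rose in KO. Of the 50 negative genes, 35 rose in both, 7 rose in WT without passing in KO, 4 fell in KO without passing in WT, 3 rose in WT and fell in KO, and 1 fell in both. Both responses and the interaction come from the same libraries, so these counts describe the calls and add no test.

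How far the calls rest on single clones was read by leaving out each clone in turn. The number of genes called was 570 without WT1, 35 without WT2, 73 without WT3, 21 without KO1 and 130 without KO2, and all 150 kept their sign in each of these fits. The 12 genes past the threshold in all 5 fits were Ifit2, Irgm2, Cmpk2, Tap1, Klf3, Cxcl2, Calcrl and Odc1, with positive interactions, and Dicer1, Malt1, Rassf2 and Adhfe1, with negative ones. When the counts of each clone and treatment were summed, so that the 5 clones alone set the spread, 2 genes were called, Ifit2 and Cxcl2. In that fit 876 of 16844 genes tested had an unadjusted p under 0.05 (5.2%), against 9.3% in the main fit. With 5 clones, the smallest p that an exact permutation over clones can give is 0.1.

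**Figure D2:**
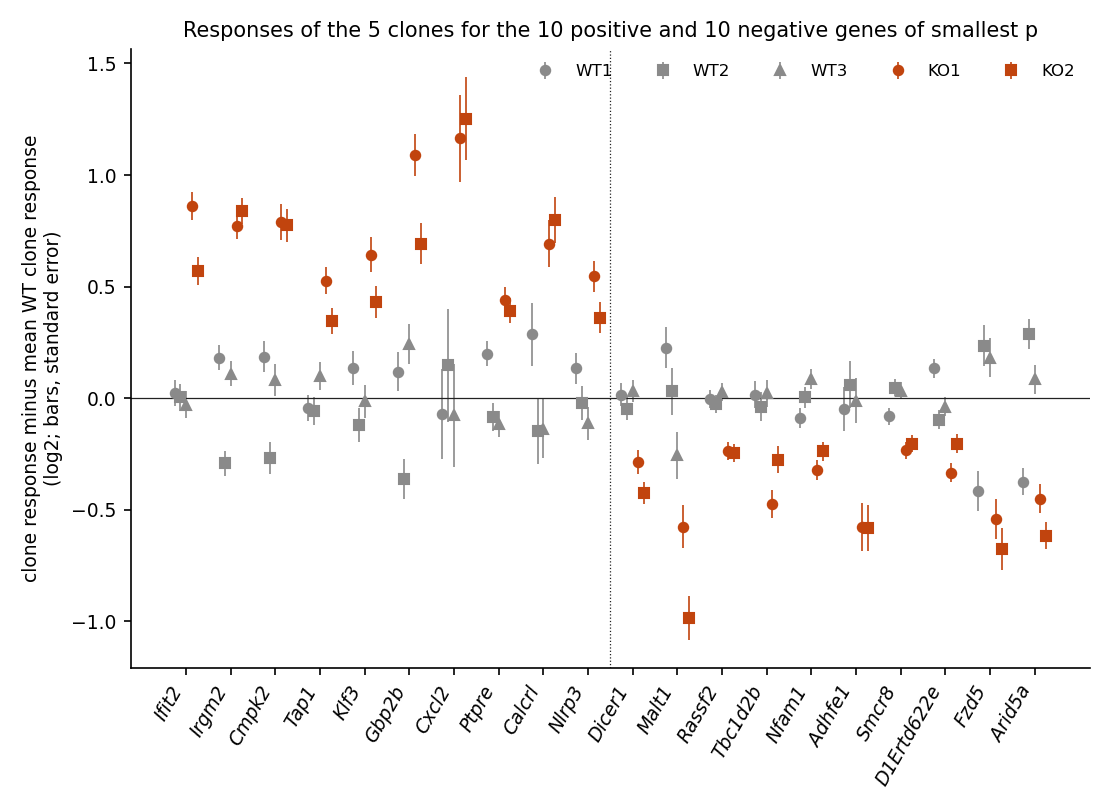
For the 10 positive and the 10 negative interactions of smallest p, the response to IFNG of each clone is drawn on the vertical axis as its log2 difference from the mean of the 3 WT responses, with bars of 1 standard error. The KO clones lie on 1 side of all WT clones for each of the 20 genes, and WT1 is nearer to the KO clones than WT2 and WT3 are for Fzd5 and Arid5a.

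Dicer1, which encodes the ribonuclease that cuts microRNA precursors, holds the deleted element and is given first as the check of the genotypes. Its level ranged from 96.8 to 130 CPM (median 124) in untreated WT, from 132 to 171 CPM (median 157) in IFNG-treated WT, from 70.4 to 108 CPM (median 87.1) in untreated KO and from 71.5 to 105 CPM (median 88.9) in IFNG-treated KO libraries. The WT and KO levels did not overlap after IFNG. The KO clones stood apart, with means of 71.5 and 75 CPM in untreated and treated KO1 and 104.5 and 99.6 CPM in KO2, and the part of the lower chromosome 12 level of KO1 in this was not tested. Dicer1 rose by a log2FC of 0.36 in WT, and its log2FC in KO was -0.0018 (adjusted p = 0.978). Of the 25 tested genes of microRNA processing and Argonaute complexes, Dicer1 alone passed the test of the interaction (median of the 25, -0.00016), against 1.02% of all genes tested.

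Ifit2, an interferon-induced protein with tetratricopeptide repeats that binds viral RNA, had the smallest p of all genes (mm10 chr19:34550694-34576419, plus strand). It ranged from 17.3 to 26.1 CPM (median 20.6) in untreated WT and from 10.6 to 13.4 CPM (median 11.7) in untreated KO libraries, and from 73.1 to 107 CPM (median 85.7) and from 65.6 to 95.7 CPM (median 79.5) after IFNG. The KO libraries thus lay below all WT libraries before treatment and overlapped them after it. The log2FC under IFNG was 2.07, 2.05 and 2.02 in WT1, WT2 and WT3 and 2.91 and 2.61 in KO1 and KO2, and the interaction was 0.71 (standard error 0.0629, edgeR adjusted p = 9.81e-09). Leaving out a clone gave interactions from 0.56 to 0.86.

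Cmpk2, a mitochondrial nucleotide kinase of the antiviral response on chromosome 12, showed the same arrangement of levels. Untreated, it ranged from 4.06 to 7.96 CPM (median 4.94) in WT and from 2.19 to 3.19 CPM (median 2.92) in KO libraries, and after IFNG from 37.6 to 48.1 CPM (median 39.9) and from 32.2 to 41 CPM (median 37.1). The responses were 3.12, 2.67 and 3.02 in the WT and 3.73 and 3.71 in the KO clones, with an interaction of 0.79 (standard error 0.0911, edgeR adjusted p = 3.01e-06). Chromosome 12 genes were lower in KO1 in both treatments, and the part of this shift in the Cmpk2 values was not tested.

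Ifi44l, an interferon-induced gene of the antiviral class, was called at 0.73 (adjusted p = 0.0166) and lost the call without WT1, WT2, KO1 or KO2 (adjusted p = 0.0592, 0.197, 0.403 and 0.09). Tor3a, an ATPase of the endoplasmic reticulum induced by interferon, was the only gene of this class with a negative call (-0.20, adjusted p = 0.0276), and it lost the call without WT2, WT3, KO1 or KO2 (0.181, 0.381, 0.501 and 0.0611). These 4 were the calls among 34 tested antiviral genes of the ISRE class (1.02% of all genes tested were called). The median interaction of the 34 was 0.073, and 33 of the 34 rose in WT. The other 30 did not pass. None of the 6 tested genes of Isg15 conjugation and of the 14 TRIM proteins passed, with Ube2l6, the enzyme that loads Isg15, at 0.04 (standard error 0.0741) and Trim30a at 0.06 (standard error 0.0535).

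The immunity-related GTPases (IRGs) followed, with Irgm2 next to Ifit2 by p. Irgm2, a regulatory GTPase of the family (mm10 chr11:58199618-58222782, plus strand), ranged from 8.15 to 11.5 CPM (median 10.1) in untreated WT and from 5.12 to 6.22 CPM (median 5.86) in untreated KO libraries. After IFNG it reached 405 to 529 CPM (median 464) in WT and 436 to 505 CPM (median 473) in KO. As for Ifit2, the genotypes were apart before and mixed after treatment. Its responses were 5.72, 5.25 and 5.65 in WT and 6.31 and 6.38 in KO clones, and the interaction was 0.80 (standard error 0.0803, edgeR adjusted p = 1.56e-07). The KO and WT values of Igtp, the effector regulator also called Irgm3, were 6.19 to 7.96 CPM (median 6.83) and 7.63 to 9.9 CPM (median 8.38) untreated, and 556 to 611 CPM (median 580) and 441 to 586 CPM (median 515) after IFNG. Igtp had an interaction of 0.48 (adjusted p = 0.000474), which lost its call without KO1 (0.42, adjusted p = 0.0941). Irgm1, whose product acts in autophagy, had 0.35 (adjusted p = 0.0349) and lost its call without WT2, WT3, KO1 or KO2 (0.483, 0.186, 0.501 and 0.117). Of 15 IRGs tested, all rose in both genotypes, and 3 were called positive (0.681% of all genes tested) and none negative. The median interaction was 0.36 against -0.0030 over all genes. The IRGs had a median WT log2FC of 5.90. The 70 genes with a WT log2FC above 4 and at least 1 CPM in some group had a median interaction of 0.33. With a clone left out, 1 to 5 IRGs were called and the IRG median stayed between 0.20 and 0.40.

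Irgm2 and Igtp are neighbours on chromosome 11 and share 162 exon bases on 1 strand, where the deposited counts credit a fragment to both. Their promoter windows, the 250 bases before each RefSeq gene start in GRCm38.p6, share a stretch of 55 bases. The RefSeq start of Irgm2 is not that of the gene as counted. The Irgm2 window lies inside the counted span given above, which begins just past the Igtp window. Both windows are printed, with the windows of Gbp2 and Cxcl2 for contrast, because each holds a motif of transcription factors of the interferon or NF-kB response. Capitals mark matches to GAS (TTCNNNGAA), the ISRE core (GAAANNGAA) and the kB core of NF-kB (GGANTTTCC), each searched on both strands.
Irgm2, chr11:58214727-58214976, plus strand: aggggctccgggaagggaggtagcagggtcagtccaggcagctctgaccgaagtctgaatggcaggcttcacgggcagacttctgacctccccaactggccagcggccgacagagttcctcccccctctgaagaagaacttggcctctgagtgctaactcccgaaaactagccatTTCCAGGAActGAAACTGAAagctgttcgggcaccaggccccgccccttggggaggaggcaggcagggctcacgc
Igtp, chr11:58199306-58199555, plus strand: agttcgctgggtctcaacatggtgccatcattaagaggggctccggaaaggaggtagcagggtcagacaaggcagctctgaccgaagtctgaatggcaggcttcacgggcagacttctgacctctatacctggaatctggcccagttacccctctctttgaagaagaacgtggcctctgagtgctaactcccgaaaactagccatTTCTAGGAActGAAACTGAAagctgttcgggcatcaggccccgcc
Gbp2, chr3:142620413-142620662, plus strand: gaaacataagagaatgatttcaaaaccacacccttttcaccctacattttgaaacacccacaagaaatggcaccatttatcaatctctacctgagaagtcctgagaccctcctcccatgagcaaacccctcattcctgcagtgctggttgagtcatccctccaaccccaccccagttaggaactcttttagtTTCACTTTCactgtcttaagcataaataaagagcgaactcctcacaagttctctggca
Cxcl2, chr5:90903649-90903898, plus strand: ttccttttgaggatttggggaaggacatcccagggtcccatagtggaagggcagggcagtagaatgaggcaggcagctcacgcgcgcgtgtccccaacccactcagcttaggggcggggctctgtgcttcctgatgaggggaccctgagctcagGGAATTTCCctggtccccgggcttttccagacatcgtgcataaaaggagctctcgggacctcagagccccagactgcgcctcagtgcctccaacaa
In the Irgm2 window the GAS match lies 75 to 67 bases and the ISRE core 64 to 56 bases before the start, and in the Igtp window they lie 45 to 37 and 34 to 26 bases before it. The ISRE core of Gbp2 lies 58 to 50 bases and the kB core of Cxcl2 96 to 88 bases before the start. RefSeq windows were found for 9601 of the 14682 genes tested, 80 of them with positive and 34 with negative calls. The ISRE core was present in 20% of the positive and 5.88% of the negative genes, against 7.7% of all genes tested and 22.6% of genes with a WT response over 1. The kB core was present in 6.25%, 2.94%, 1.4% and 4.37% of these sets, and GAS in 11.2%, 8.82%, 7.08% and 13.8%. These shares were not tested, and a match is only a description of the sequence.

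The guanylate-binding proteins (GBPs), GTPases that assemble on pathogen vacuoles and bacteria, had the highest median interaction of the 43 gene lists, 0.55. Their median WT log2FC was 7.98, and the median interaction of genes with a WT log2FC above 4 was 0.33. All 11 GBPs tested rose in both genotypes, and 4 were called positive (0.681% of all genes tested) and none negative. Their interactions ranged from -0.016 to 1.78. Gbp2b, also known as Gbp1, was the most strongly induced of the called genes. It ranged from 2.38 to 3.7 CPM (median 3.26) in untreated WT and from 1.9 to 2.78 CPM (median 2.26) in untreated KO, and from 1076 to 1711 CPM (median 1289) and 1622 to 1942 CPM (median 1823) after IFNG. Clone means of the KO clones were below those of all WT clones before and above them after treatment. Its interaction was 0.85 (standard error 0.126, adjusted p = 0.000172), and without KO1 it was 0.66 (adjusted p = 0.0761). Gbp2 reached 557 to 724 CPM (median 628) in WT and 703 to 747 CPM (median 739) in KO after IFNG, with an interaction of 0.55 (adjusted p = 0.0166). Gbp3 had 0.61 (adjusted p = 0.00585), and Gbp4, at under 1 CPM in all untreated libraries, had 1.12 (standard error 0.269, adjusted p = 0.0294). Gbp2 and Gbp3 lost the call without WT2 (adjusted p = 0.21 and 0.0914) or KO1 (0.53 and 0.379), and Gbp4 without WT2, KO1 or KO2 (0.201, 0.268 and 0.224). The number of GBPs called was 6 without WT1, 1 without WT2, 4 without WT3, 0 without KO1 and 3 without KO2, and the median stayed positive, from 0.38 to 0.72. GBPs and IRGs are families of close copies, and Gbp4 shares 61 exon bases with Gbp8 and 60 with Gbp9, so values of single members are uncertain.

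Among 22 sensors of nucleic acids, 4 were called positive (0.681% of all genes) and none negative, with a median of 0.18. They were Ddx58, the RNA helicase RIG-I (0.32, adjusted p = 0.0197), and the PYHIN proteins Ifi204 (0.35, adjusted p = 0.0166), Ifi211 (0.35, adjusted p = 0.0319) and Ifi207 (0.26, adjusted p = 0.0338), which bind DNA. Ifi204 lay between 27.4 and 35.6 CPM (median 31.5) in untreated WT and between 15.6 and 17 CPM (median 16.1) in untreated KO libraries, and between 255 and 326 CPM (median 274) and between 165 and 213 CPM (median 192) after IFNG. Its KO levels were below WT in both treatments, and the gap on the log2 scale, though not in CPM, was wider before IFNG. None of the 22 was called without WT2 or without KO1, 5 were called positive and 3 negative without WT1, 5 positive without WT3, and 3 positive without KO2. Ifi211 lost its call without KO2 as well (adjusted p = 0.0617). Slfn8, of the Schlafen family of growth regulators, ranged from 19.1 to 35.2 CPM (median 30.8) in untreated WT and from 11.3 to 16.8 CPM (median 13.6) in untreated KO, with an interaction of 0.47 (adjusted p = 0.000474) that lost its call without KO1 (0.37, adjusted p = 0.12). The other 7 Schlafens tested did not pass. Of 9 interferon-induced PARPs, enzymes that attach ADP-ribose, Parp14 (0.37, adjusted p = 0.00754) and Parp3 (0.28, adjusted p = 0.0235) were called. Parp14 was also 1 of the 20 genes whose response differed between the KO clones, and its call was lost without WT2 (adjusted p = 0.157) or KO1 (0.14, adjusted p = 0.718). Parp3 lost its call without WT2, WT3 or KO1 (0.113, 0.15 and 0.772).

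In the pathway itself, Ifngr2, a chain of the IFNG receptor, fell in both genotypes, and less in KO (interaction 0.30, adjusted p = 0.0141). Its level after IFNG was 47.5 to 63 CPM (median 56.8) in WT and 63.8 to 84.6 CPM (median 76.2) in KO, and it lost its call without WT2, WT3 or KO1 (0.159, 0.148 and 0.502). Of the 14 receptor, JAK and STAT genes tested 2 were called, both positive (0.681% of all genes tested), and the median was 0.050.

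Of 14 interferon regulatory factors and partners, Irf9, a factor that binds the ISRE, had log2FC values of 0.99 in WT and 1.34 in KO, a rise in both (interaction 0.35, adjusted p = 0.00681). Irf5, a factor of inflammatory gene induction, fell by 0.13 in WT and rose by 0.10 in KO (interaction 0.22, adjusted p = 0.0123). These 2 were the only calls of the 14, and 1.02% of all genes tested were called. Irf9 lost its call without WT2 or KO1 (adjusted p = 0.156 and 0.233), and Irf5 without WT2, WT3 or KO1 (0.0962, 0.148 and 0.374). Irf9 shares 123 exon bases with Rnf31, where a fragment counts for both. None of 19 genes of negative feedback was called (median 0.042), with the tyrosine phosphatases Ptpn6 at -0.05 (standard error 0.0505) and Ptpn1 at 0.03 (standard error 0.0376). None of 7 interferon chemokines was called either, though their median was 0.21. It was 0.42, 0.43 and 0.50 without WT1, WT2 or KO1, but 0.016 without WT3 and -0.041 without KO2. Cxcl10, which draws T cells, had an interaction of 0.84 with a standard error of 0.315 (adjusted p = 0.309), so a difference of the size seen for Gbp2b could not be resolved there.

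Few genes of antigen presentation were called. Tap1, a subunit of the peptide transporter, ranged from 17.3 to 30.2 CPM (median 19.9) in untreated WT and 19.1 to 23.8 CPM (median 21.1) in untreated KO, and from 168 to 266 CPM (median 182) and 244 to 280 CPM (median 258) after IFNG. The untreated levels overlapped, and only the WT1 libraries reached the KO range after IFNG. The responses were 3.14, 3.13 and 3.28 in WT and 3.71 and 3.53 in KO clones (interaction 0.44, standard error 0.0589, adjusted p = 5.66e-05). Psmb9, the immunoproteasome subunit encoded beside Tap1 on chromosome 17, had an interaction of 0.31 (adjusted p = 0.0153), lost without WT2, KO1 or KO2 (adjusted p = 0.0767, 0.162 and 0.124). They were the only calls among 24 genes of MHC class I presentation (median 0.073) and 7 of the immunoproteasome and PA28 (median 0.13). The share called over all genes tested was 1.02%. None of 11 tested MHC class II genes was called, with a median of -0.0085 and Ctss, the cathepsin that trims invariant chain, at 0.03 (standard error 0.0595).

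**Figure D3:**
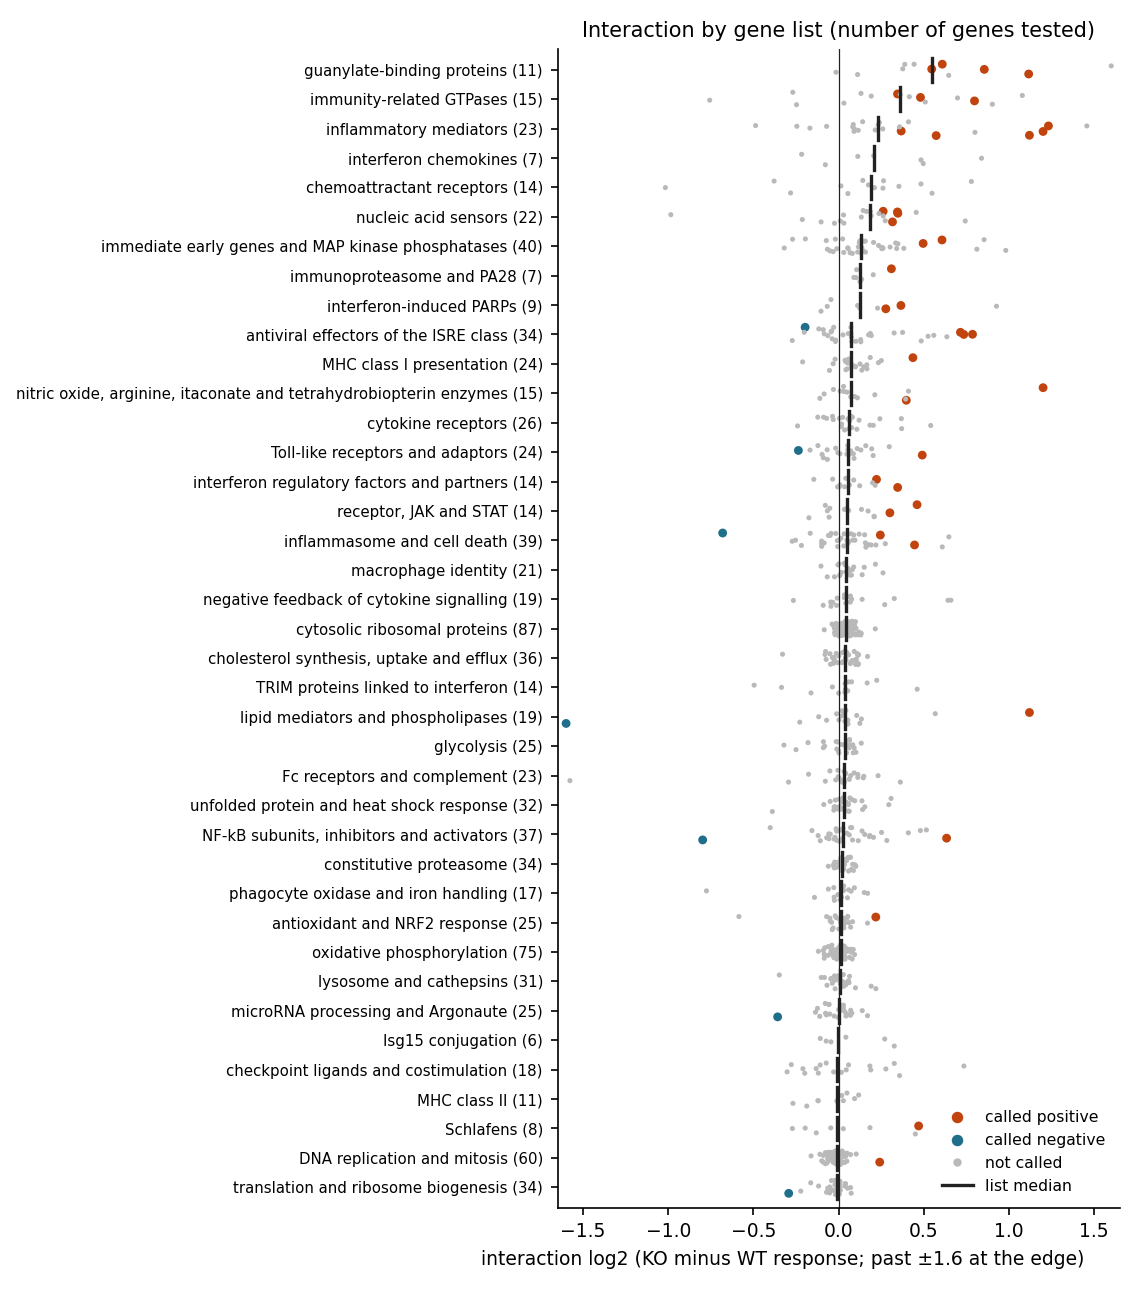
Each row is a gene list, with the number of genes tested, each point is 1 gene, its position on the horizontal axis is the interaction log2 (KO response minus WT response), and the black mark is the list median. The guanylate-binding proteins and immunity-related GTPases have the highest medians, 0.55 and 0.36, while lists of basic cell functions such as oxidative phosphorylation (median 0.012) lie at 0, and lists of other cell types are not drawn. Both families are strongly induced, and genes with a WT log2FC above 4 have a median interaction of 0.33.

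The difference in response was split into the difference in level before and after IFNG, as log2(CPM + 0.5) of the KO clone mean minus the WT clone mean. For genes near 0 CPM the added 0.5 makes this split differ from the tested interaction. In the data as a whole, KO clone means lay above those of all WT clones for 15.5% and below for 15.7% of genes tested in untreated cells, and for 14.8% and 16.4% after IFNG. Of the 54 genes that rose in WT and had a positive interaction, 24 were lower in both KO clones than in all WT clones before treatment and 2 were higher, whereas after IFNG 10 were lower and 11 higher. A positive interaction favours a lower start or a higher end, so these counts are a description. Pooling 13 interferon-related lists, a choice made after their values were seen, gave 185 tested genes with a median interaction of 0.11. There were 23 positive calls (12.4%, against 0.681% of all genes) and 1 negative call. Calls were also more frequent among all genes with a strong WT response. With at least 1 CPM in some group, 12.4% were called in either direction at a WT log2FC of 2 to 4 and 12.9% above 4. Of the 23 positive genes in the pooled lists, the number still called was 22 without WT1, 7 without WT2, 18 without WT3, 4 without KO1 and 17 without KO2. Of the 23, 13 began lower in both KO clones than in all WT clones, among them Ifit2, Irgm2, Igtp, Cmpk2, Slfn8, Irf9 and Ddx58, and 15 overlapped WT after IFNG. Gbp2b, Gbp2, Irf5 and Ifngr2 ended above all WT clones. Over all 185, 57 were lower and 12 higher in untreated KO clones, and 38 were lower and 19 higher after IFNG. Untreated KO levels below all WT clones were thus found in these lists as a whole as well as among the called genes.

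**Figure D4:**
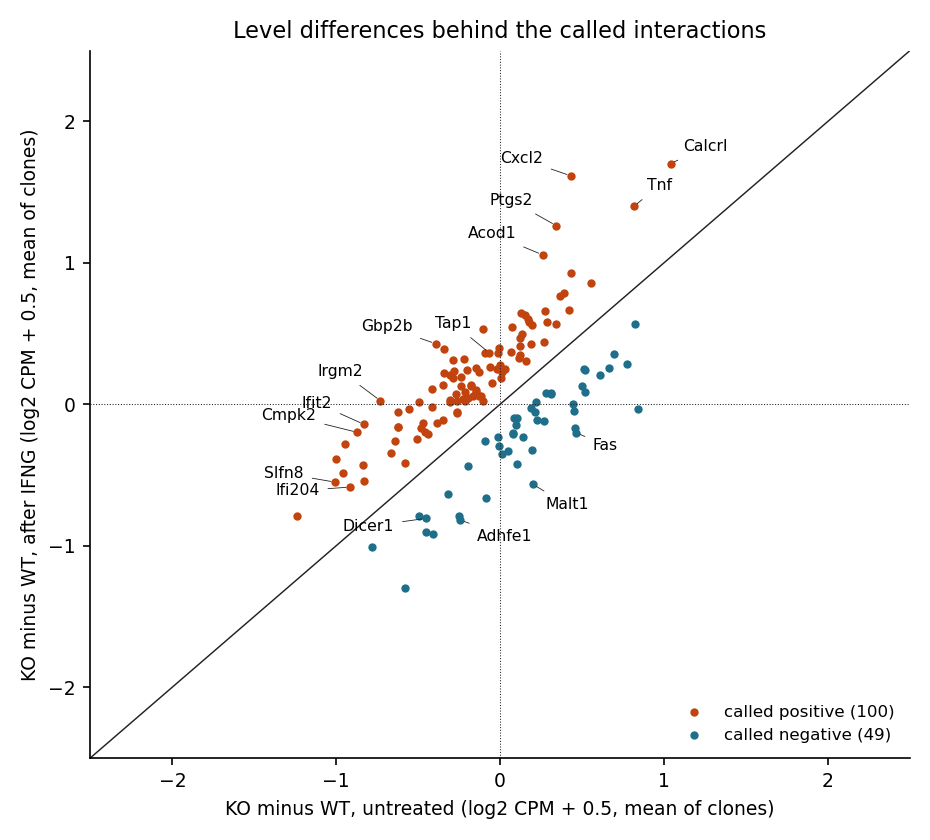
For the genes called in the interaction, the horizontal axis gives the KO minus WT difference in log2(CPM + 0.5) in untreated cells and the vertical axis the same difference after IFNG, each as a mean over clones, and points on the line have equal differences in both. Ifit2, at -0.83 and -0.14, and Cmpk2, at -0.87 and -0.20, lie to the left with little difference after IFNG, whereas Cxcl2, at 0.43 and 1.62, lies high, and Pla2g7, at 5.24 and 5.29, is past the axes. The tested interaction of Pla2g7 was -2.96, which these values do not show because 0.5 CPM was added to WT levels near 0.

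A further group was that of the inflammatory mediators, many of which NF-kB and MAP kinases induce. Of 23 tested, 15 rose and 7 fell under IFNG in WT (median log2FC 0.70). Positive calls numbered 5 (0.681% of all genes tested), none was negative, and the median interaction was 0.23. Cxcl2, a chemokine that draws neutrophils (mm10 chr5:90903871-90905938, plus strand), had the largest positive interaction of all called genes. It ranged from 56.9 to 349 CPM (median 117) in untreated WT and from 121 to 247 CPM (median 167) in untreated KO, and fell to 7.67 to 37.4 CPM (median 12.5) in WT and 37.1 to 76.2 CPM (median 44.2) in KO. Untreated levels overlapped, with WT1 highest, and after IFNG only 1 WT1 library reached the lowest KO library. The fall was by 3.12, 2.90 and 3.12 in WT and by 1.88 and 1.80 in KO clones on the log2 scale, with an interaction of 1.23 (standard error 0.183, adjusted p = 0.000173) and 1.19 to 1.29 with a clone left out.

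Tnf ranged from 49.3 to 105 CPM (median 63) in untreated WT and from 65.2 to 203 CPM (median 120) in untreated KO, and from 76.3 to 149 CPM (median 80.6) and 208 to 319 CPM (median 237) after IFNG. Its response was 0.54, 0.55 and 0.36 in WT, 1.42 in KO1 and 0.72 in KO2, and the interaction of 0.57 (adjusted p = 0.0235) was 0.23 without KO1 (adjusted p = 0.774) and lost its call without WT2 or WT3 as well (0.119 and 0.182). Ptgs2, which encodes the prostaglandin synthase COX-2, showed how WT1 stood apart, with a mean of 69.1 CPM in untreated WT1 against 4.53 in WT2, 2.02 in WT3, 11.8 in KO1 and 11.5 in KO2. After IFNG the means were 92.6, 9.96 and 5 CPM in the WT and 46.7 and 36.9 CPM in the KO clones, so that KO lay between WT1 and the other WT clones in both treatments. The interaction of 1.12 (standard error 0.208, adjusted p = 0.00325) fell to 0.62 without WT1 (adjusted p = 0.141) and was 0.97 without KO1 (adjusted p = 0.162). Ccl3, a monocyte chemokine, fell in WT by 0.44 and had -0.08 in KO (interaction 0.37, adjusted p = 0.00585), lost without KO1 (0.29, adjusted p = 0.238). Acod1, which makes itaconate, had an interaction of 1.20 (adjusted p = 0.0453) that was 0.011 without WT1 and 0.63 with DESeq2 (adjusted p = 1 and 0.609), and it also lost its call without WT3, KO1 or KO2 (0.0611, 0.429 and 0.0883). The number of mediators called was 4 without WT1, WT2, WT3 or KO2 and 1 without KO1, and without WT1 another 1 was called negative.

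**Figure D5:**
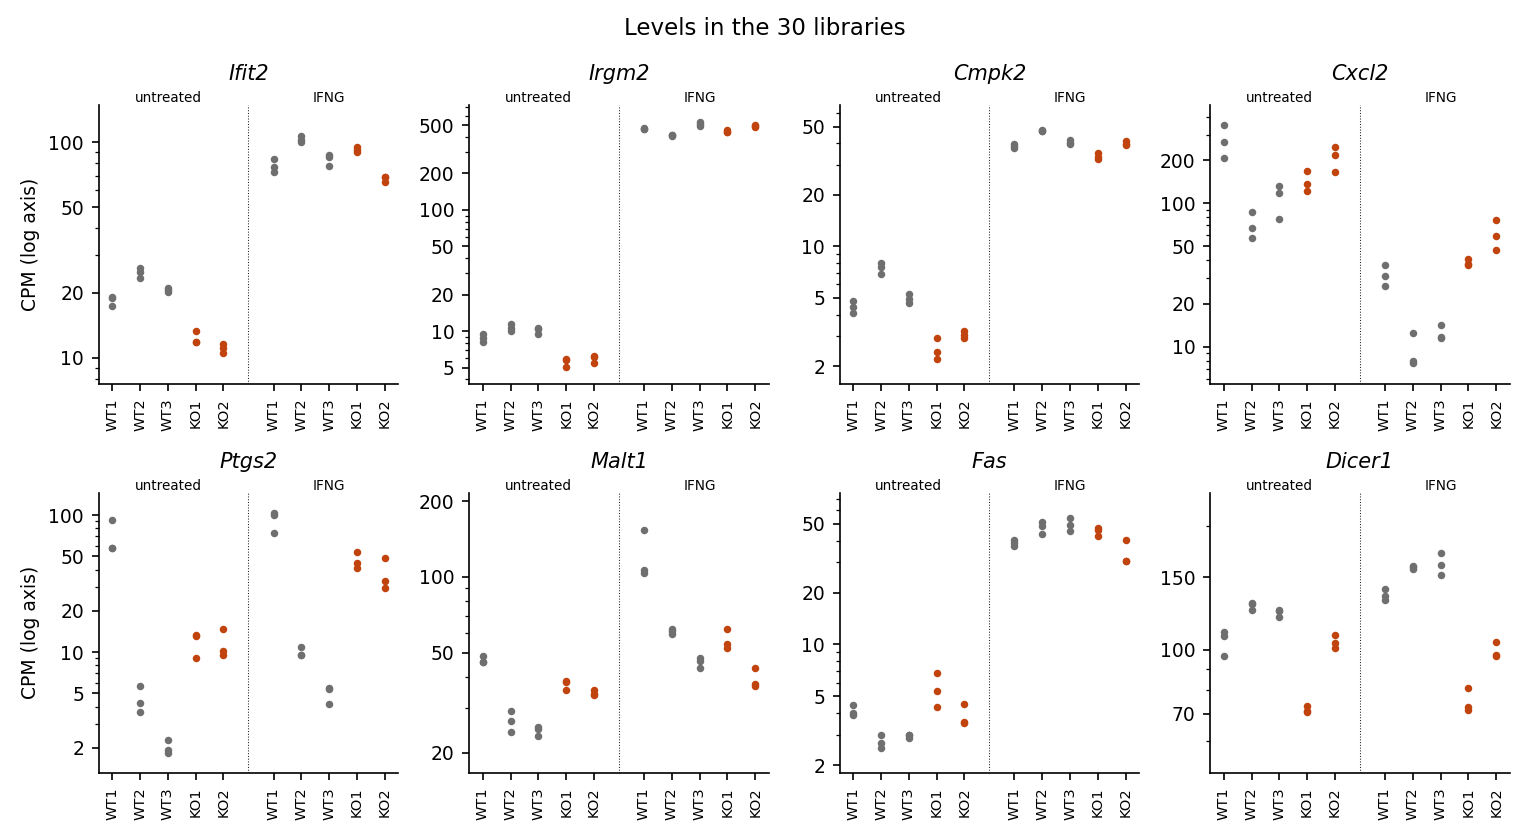
Each point is 1 library, with its level in CPM on a log axis, untreated on the left and IFNG-treated on the right of each panel, for the 5 clones. Ifit2, Irgm2 and Cmpk2 are lower in KO than in WT libraries before IFNG and overlap after it, Cxcl2 is higher in KO after IFNG than in all but 1 WT1 library, Ptgs2 is highest in WT1, and Dicer1 is lower in KO than in WT after IFNG.

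Among other groups were genes that fell in WT and had a positive interaction, which made up 41 of the 100 positive calls. At a WT log2FC of -1 or lower and at least 1 CPM in some group, 12 of 165 genes were called positive (7.27%). None there was called negative. Dusp6, a phosphatase of ERK that ERK signalling induces, went from 98.9 to 131 CPM (median 113) untreated to 24.9 to 39.2 CPM (median 29.7) in WT and from 76.8 to 108 CPM (median 91.8) to 24.6 to 50 CPM (median 40.6) in KO. The libraries overlapped in both treatments, and the responses differed between WT clones (-1.44 in WT1, -2.10 in WT2 and -2.14 in WT3, adjusted p = 8.31e-05), with -1.48 in KO1 and -1.08 in KO2. Its interaction was 0.61 (adjusted p = 0.00585) and fell to 0.39 without KO2 (adjusted p = 0.357). It also lost its call without WT2 or WT3 (0.119 and 0.102). Genes that fell in both genotypes without a call of the interaction numbered 2535, against the 27 called positive. Btg2, an antiproliferative immediate early gene, was the other call among 40 immediate early genes and MAP kinase phosphatases (0.50, adjusted p = 0.0151), lost without WT2, KO1 or KO2 (adjusted p = 0.0767, 0.182 and 0.121). The list median was 0.13, and 31 of the 40 interactions were above 0. The share called over all genes tested was 1.02%.

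Nlrp3, the sensor of the inflammasome, fell from 78 to 112 CPM (median 85.3) to 34.4 to 59.5 CPM (median 39.4) in WT and from 74.4 to 97.7 CPM (median 82.8) to 49.4 to 59.2 CPM (median 54) in KO. Its interaction was 0.45 (adjusted p = 0.000474), and 0.35 without KO1 (adjusted p = 0.0824). Bid, a protein of cell death, was also called positive (0.24, adjusted p = 0.0434), and it lost the call without WT2, WT3, KO1 or KO2 (0.361, 0.264, 0.139 and 0.531). Tlr13, the receptor for bacterial ribosomal RNA, fell by 1.14 in WT and by 0.65 in KO (interaction 0.49, adjusted p = 0.0252). It lost its call without the same clones (0.384, 0.275, 0.334 and 0.15). Nlrp3, Bid and, with a negative interaction, Fas were the calls among 39 tested genes of the inflammasome and cell death. Tlr13 and, with a negative interaction, Myd88 were those among 24 Toll-like receptors and adaptors. Over all genes tested, 1.02% were called.

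Calcrl, a receptor of the calcitonin gene-related peptide family, was higher in KO throughout. It ranged from 7.09 to 15.2 CPM (median 13) and 19.1 to 27 CPM (median 25) in untreated WT and KO, and from 3.44 to 5.32 CPM (median 4.06) and 12 to 16.7 CPM (median 14.7) after IFNG, with an interaction of 0.75 (standard error 0.117, adjusted p = 0.00036). Ptpre, a tyrosine phosphatase, fell by 1.23 in WT and by 0.82 in KO (interaction 0.41, adjusted p = 0.000324), with an adjusted p of 0.0524 without KO1. Ccnd1, the cyclin of the G1 phase, fell by 0.70 in WT and by 0.46 in KO (interaction 0.24, adjusted p = 0.0228), and was the only call among 60 genes of DNA replication and mitosis. Nfe2l2, the transcription factor NRF2, was the only call among 25 antioxidant genes (0.22, adjusted p = 0.0357), against 1.02% of all genes tested. Both lost their calls without WT2 (0.144 and 0.344), WT3 (0.24 and 0.254), KO1 (0.16 and 0.491) or KO2 (0.196 and 0.0576).

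The transcription factor Klf3 changed direction between genotypes. It ranged from 52.1 to 84.7 CPM (median 75) untreated and 49.7 to 75.6 CPM (median 64.6) treated in WT, and from 31.8 to 65.4 CPM (median 47.6) and 48.1 to 78.9 CPM (median 63.1) in KO. The levels overlapped, yet Klf3 fell by 0.15 in WT (adjusted p = 0.0126) and rose by 0.38 in KO (adjusted p = 1.62e-06), with an interaction of 0.53 (standard error 0.0758, adjusted p = 0.000126). Nfkbiz, the nuclear inhibitor of NF-kB zeta, fell by 0.23 in WT and rose by 0.40 over both KO clones (interaction 0.63, adjusted p = 0.0153), and lost its call without WT2, WT3 or KO1 (0.083, 0.0552 and 0.559). Its log2FC was 0.75 in KO1 and 0.11 in KO2 (adjusted p = 0.587), and the interaction without KO1 was 0.34. Odc1, the first enzyme of polyamine synthesis and a chromosome 12 gene, rose by 0.57 in WT and 0.96 in KO. It ranged from 71.9 to 103 CPM (median 85.5) and 103 to 143 CPM (median 107) in untreated WT and KO, and from 108 to 156 CPM (median 128) and 194 to 263 CPM (median 220) after IFNG, with an interaction of 0.40 (adjusted p = 0.0016). Odc1 and Acod1 were the calls among 15 genes of nitric oxide, arginine, itaconate and tetrahydrobiopterin enzymes (median 0.070), against 1.02% of all genes tested.

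Of the 50 genes with a negative interaction, 43 lay outside the gene lists, as did 63 of the 100 positive ones. Malt1, negative, and Nfkbiz, positive, were the calls among 37 tested subunits, inhibitors and activators of NF-kB (1.02% of all genes tested were called). Malt1, the paracaspase that links antigen and pattern receptors to NF-kB, ranged from 23.3 to 48.3 CPM (median 26.6) in untreated WT and from 33.9 to 38.5 CPM (median 35.5) in untreated KO, and from 43.5 to 154 CPM (median 60.9) and 36.8 to 62 CPM (median 47.7) after IFNG. WT1 was the highest clone in both treatments, and the genotypes overlapped. The responses were 1.39, 1.19 and 0.90 in WT and 0.58 and 0.17 in KO clones, with an interaction of -0.80 (standard error 0.112, adjusted p = 9.88e-05) and -1.01 to -0.60 with a clone left out. Adhfe1, a mitochondrial alcohol dehydrogenase, ranged from 5.88 to 7.59 CPM (median 6.38) in untreated WT and 4.47 to 6.16 CPM (median 5.39) in untreated KO, and from 16.1 to 23.5 CPM (median 22.3) and 10.8 to 12.6 CPM (median 12) after IFNG. The KO libraries lay below all WT libraries after IFNG and overlapped them before, with an interaction of -0.58 (standard error 0.0926, adjusted p = 0.000474). Rassf2, a Ras-association protein linked to apoptosis, had -0.24 (standard error 0.0355, adjusted p = 0.000172), with overlapping levels in both treatments.

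Fas, the death receptor, ranged from 2.53 to 4.47 CPM (median 2.98) in untreated WT and 3.53 to 6.85 CPM (median 4.44) in untreated KO, and from 37.3 to 53.9 CPM (median 45.2) and 30.4 to 47.5 CPM (median 41.4) after IFNG. Its response in WT1, 3.23, was nearer to the KO clones (3.03 and 3.11) than to WT2 and WT3 (4.14 and 4.06), and the WT clones differed (adjusted p = 0.00501). The interaction of -0.68 (adjusted p = 0.0214) was -1.02 without WT1 and lost its call without WT2, WT3, KO1 or KO2 (0.294, 0.244, 0.282 and 0.0706). Arid5a, an RNA-binding protein that stabilises inflammatory mRNAs, reached 161 to 197 CPM (median 185) in WT and 128 to 143 CPM (median 136) in KO after IFNG, with overlapping untreated levels and an interaction of -0.51 (adjusted p = 0.00371) that was lost without WT2, WT3 or KO2 (0.0824, 0.0715 and 0.16). Fzd5, a Wnt receptor, rose in WT by 0.64 and had 0.04 in KO (interaction -0.61, adjusted p = 0.00371), and its call was lost without WT2, WT3, KO1 or KO2 (0.0824, 0.0804, 0.0846 and 0.0768). Myd88, the adaptor of Toll-like receptors, rose by 1.35 in WT and 1.11 in KO (interaction -0.24, adjusted p = 0.0227), and Rrp12, a ribosome export factor, by 1.25 and 0.95 (interaction -0.29, adjusted p = 0.0208). Myd88 lost its call without WT2, WT3, KO1 or KO2 (0.331, 0.251, 0.418 and 0.0687), and Rrp12 lost its call without WT1, WT2 or KO2 (0.107, 0.059 and 0.503).

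The remaining genes with a negative interaction of small p were Tbc1d2b (-0.37), Nfam1 (-0.28), Smcr8 (-0.22) and D1Ertd622e (-0.27), with adjusted p = 0.000474, 0.000474, 0.00094 and 0.00201. Each lost its call without KO1 (0.0941, 0.119, 0.0761 and 0.173). Nfam1, an immunoreceptor with an ITAM motif, rose by 0.11 in WT and fell by 0.17 in KO. Pla2g7, the phospholipase that cleaves platelet-activating factor, had the largest negative value, -2.96 (standard error 0.61, adjusted p = 0.00792), and it rests on hardly any WT counts. It had 2 counts in all over the 9 untreated and 26 over the 9 treated WT libraries, against 1163 and 1579 in untreated and treated KO1 and 1988 and 2430 in KO2. Its level in KO was 14.5 to 25.9 CPM (median 18.9) untreated and 21.4 to 28.6 CPM (median 25.3) treated, so Pla2g7 was apart between genotypes in both treatments while its WT response could hardly be measured. Its call was lost without WT2 or WT3 (adjusted p = 0.0964 and 0.308).

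Many functions showed no call. These were 87 cytosolic ribosomal proteins (median 0.042, range -0.085 to 0.21), 75 genes of oxidative phosphorylation (median 0.012, range -0.12 to 0.094), 36 of cholesterol metabolism, 34 of the constitutive proteasome, 32 of the unfolded protein and heat shock response, 31 of the lysosome and cathepsins, 26 cytokine receptors, 25 of glycolysis, 23 Fc receptors and complement genes, 21 of macrophage identity, 18 checkpoint and costimulation genes, 17 of the phagocyte oxidase and iron handling, and 14 chemoattractant receptors. Precision was high for the abundant genes. Csf1r, the receptor for CSF1, had an interaction of 0.06 (standard error 0.0441), Lyz2 of -0.02 (standard error 0.06) and Atp5b of -0.0033 (standard error 0.036). Icam1, an adhesion molecule that rose by 2.86 in WT and 2.56 in KO, came nearest to the threshold among the named genes not called (-0.30, standard error 0.0825, adjusted p = 0.0716). In all, 44 of the 980 tested genes in the 43 lists were called (4.49%, against 1.02% of all genes), and 22 lists had none.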

How the data were processed

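RNA-seq libraries of polyadenylated RNA were made from 5 J774A.1 clones. The authors deposited unnormalised fragment counts. They trimmed the reads (BBDuk), aligned to mm10 (HISAT2 2.1.0), kept unique alignments and merged technical repeats (SAMtools 1.10), and counted fragments over exons of each gene in reversely stranded mode (featureCounts 1.6.2). The header of the count table names Gencode vM18 and an option that credits a fragment to each overlapping gene, whereas the methods name RefSeq. Labels give more than 1 RNA input and adapter kind without assigning them to libraries, so their part in the results was not tested.

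Counts of all 30 libraries were fitted by quasi-likelihood in edgeR 4.0.16 under R 4.3.3, after filterByExpr and with TMM factors. The model held the clone, the treatment and the interaction of treatment with genotype. Libraries entered as replicates. Each genotype had a common response in the model, so the residual held the spread between libraries together with that of responses between clones. P-values and standard errors rest on this mixed spread, with libraries and not clones counted. Labels do not say whether the libraries came from separate cultures, so the spread between libraries may be technical in part. Within each clone and treatment, libraries differed beyond counting noise in all 30 pairs (chi-square per degree of freedom 1.88 to 17.9). P-values were adjusted by the Benjamini-Hochberg method over all 14682 genes, with a threshold of 0.05. The standard error, the size of the log2FC over the root of F, gives the precision reached at this depth (median 0.0721 for the interaction of genes with at least 1 CPM in some group). A second fit with a response for each clone gave clone responses and tests between clones. Levels are CPM with TMM factors of the tested genes. The script was tested on simulated data. Motifs were searched in RefSeq promoter windows with Python 3.11.15, and 67 identifiers had no symbol.

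The members and lists were chosen with earlier results of these data known. Named were the 10 positive and 10 negative called genes of smallest p with at least 1 CPM in some group, Dicer1, Ifit2, Irgm2, Cmpk2, Cxcl2 and Malt1, and from each of 43 lists up to 4 called members of smallest p or, with none called, the 2 of highest mean CPM. A gene picked by this rule and a marker gene are not reported here. Alternatives were DESeq2 1.42.0, RLE factors, no count filter, at least 10 counts in every library, 10 group means, counts summed per clone, thinning to 15566122 counts (seed 11), removal of a length trend, robust dispersions, and leaving out each clone or library. Genes named outside this rule are markers at 0 counts, overlapping partners and those said to have been chosen after their values were seen.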

Additional observations from a re-analysis of the deposited data

Results flagged for a closer look

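Each result here stands out because the effect of IFNG differed between groups of clones by a test of the difference itself. That test counted libraries and not clones as replicates. With counts summed per clone and treatment, 2 genes were called, Ifit2 and Cxcl2. Of the 55 called genes that the naming rule picks, 12 kept the call with each clone left out. The response differed between KO and WT for 150 genes, between the WT clones for 350 (19 between WT2 and WT3 alone) and between the KO clones for 20. The WT comparison has more clones than the KO comparison, and its count is not a measure on the same scale.

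Among the named genes with a positive log2FC in WT, the interaction log2 (KO response minus WT response) was positive for Ifit2 0.71, Irgm2 0.80, Cmpk2 0.79, Tap1 0.44, Gbp2b 0.85, Igtp 0.48, Slfn8 0.47, Odc1 0.40, Ptgs2 1.12, Gbp3 0.61, Irf9 0.35, Parp14 0.37, Psmb9 0.31, Gbp2 0.55, Ifi44l 0.73, Ifi204 0.35, Ddx58 0.32, Parp3 0.28, Tnf 0.57, Gbp4 1.12, Ifi211 0.35, Ifi207 0.26, Irgm1 0.35, Bid 0.24 and Acod1 1.20. Among those with a negative log2FC in WT it was positive for Klf3 0.53, Cxcl2 1.23, Ptpre 0.41, Calcrl 0.75, Nlrp3 0.45, Dusp6 0.61, Ccl3 0.37, Irf5 0.22, Ifngr2 0.30, Btg2 0.50, Nfkbiz 0.63, Ccnd1 0.24, Tlr13 0.49 and Nfe2l2 0.22. The interaction log2 was negative for Dicer1 -0.36, Malt1 -0.80, Rassf2 -0.24, Tbc1d2b -0.37, Nfam1 -0.28, Adhfe1 -0.58, Smcr8 -0.22, D1Ertd622e -0.27, Fzd5 -0.61, Arid5a -0.51, Pla2g7 -2.96, Rrp12 -0.29, Fas -0.68, Myd88 -0.24 and Tor3a -0.20.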

How the results depend on the processing

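No called interaction of a named gene changed sign under the 44 alternative settings. Medians of gene lists were not part of this check, and that of the interferon chemokines changed sign without KO2. Several medians near 0 changed sign as well. Without KO2 that of cytosolic ribosomal proteins went from 0.042 to -0.016 and that of oxidative phosphorylation from 0.012 to -0.048. The 150 genes called, 100 positive and 50 negative, became 384, 258 and 126 without a filter on low counts and 278, 184 and 94 with 10 group means, where only libraries within a clone set the spread. With counts summed per clone and treatment they became 2, 2 and 0, a fit with 5 clones in place of 30 libraries. DESeq2 called 159 positive genes. Leaving out a clone or library gave 21 to 570 calls, 11 to 378 of them positive and 10 to 192 negative, with 570 without WT1 and 21 without KO1, and among single libraries 234 without library 3 of IFNG-treated WT1. The responses of WT (6521 genes) and KO (5853 genes) stayed within 1.5 times of these counts in all settings, with 5322 to 6598 and 4052 to 6091 genes when a clone or library was left out. Genes that differed between WT clones, 350, were 571 without a filter and 19 to 378 with a clone or library left out, and those that differed between KO clones, 20, were 33 with DESeq2, 130 without a filter and 7 to 30.

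Of the 150 genes, DESeq2 called 144, RLE factors 146, thinned counts 129 and robust dispersions 135, whereas 139 were called without WT1, 34 without WT2, 58 without WT3, 19 without KO1 and 82 without KO2. Of the 55 called genes that the naming rule picks, 12 passed with each clone left out, 35 with each library left out and 2, Ifit2 and Cxcl2, in every setting. Of the 30 fits that leave out a library, Acod1 passed in 14, Irgm1 in 14, Nfe2l2 in 12, Bid in 10, Ifi207 in 17, Ifi211 in 20, Gbp4 in 22 and Tor3a in 24. Robust dispersions ended calls, among them those of Nfkbiz, Fas, Tnf, Tlr13, Irgm1 and Acod1, and 10 group means those of Pla2g7 (-2.54, adjusted p = 0.171) and Acod1. Thinning ended the calls of Gbp4 (adjusted p = 0.229), Parp3 (0.114), Tor3a (0.0773), Ifi211 (0.0646) and Acod1 (0.0571), and removal of the length trend that of Tor3a (0.0505). Of 41 named genes not called, 36 were called in no setting. The cause of these changes was not tested. No paired analysis was possible because the count columns carry no replicate numbers, so the planned replicate blocks were not run.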
